A study of Mus musculus with 3 samples.

Results

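The genes described here encode the collagens and the proteins that fold, modify, cross-link or organise them, measured on microarrays of mouse sarcoma cells that carry an inducible EWS/ATF1 transgene. They were chosen by name, as all probe sets with a single gene symbol that begins with Col and a digit, or with Loxl, P4ha or Plod, together with Lox, Sparc, Serpinh1, Fn1, Postn, Fbn1 and Fbn2. This gave 59 genes on 62 probe sets, of 19938 genes on 21789 probe sets with a single symbol. Collagens made up 44 of the genes: 11 form fibrils, 8 belong to basement membranes and 25 are of other kinds. The other 15 are 4 lysyl oxidases, 6 collagen hydroxylases, the chaperone gene Serpinh1 and 4 matrix glycoprotein genes. Fbn1 and Loxl2 had no probe set of their own and are not analysed here.

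EWS/ATF1 fuses the amino-terminal part of EWSR1 to the transcription factor ATF1 and is the fusion of human clear cell sarcoma. Each of the 3 groups has 1 array. Cultured tumor cells without doxycycline (0 microg/ml) were to be the control, cells given 0.2 microg/ml for 24 h the high doxycycline group, and a tumor resected from an EWS/ATF1-inducible mouse after 3 months of doxycycline the tumor group. All 3 were labelled as tumor cells of a soft tissue sarcoma on a mixed C57/BL6, 129 and ICR background. The description labels attach the number 1297 to both cultures and 1281 to the tumor. The promoter that drives the transgene and the number of clones or animals behind each array are not given in the sources used here. Since a group is 1 array, no difference has a replicate check or a p-value, and every value describes 3 arrays rather than 3 conditions.

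Collagens are trimers of chains that share long stretches of the repeat glycine-X-Y. In the endoplasmic reticulum prolyl and lysyl hydroxylases modify the chains, and the chaperone encoded by Serpinh1 holds the folded trimer. After secretion the end peptides are removed, the trimers assemble into fibrils or networks, and lysyl oxidases start the cross-links. In connective tissue most fibrillar collagen comes from fibroblasts, while type IV collagen is laid down by many cells that rest on a basement membrane, among them endothelium and muscle.

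The array labelled control, a culture by its label, was bright for genes of blood, vessel and muscle cells, and the array labelled tumor was not, which goes against the labels. Directions below are given by label only, and the short names control, high doxycycline and tumor stand for the arrays so labelled. In bulk RNA, fewer cells of a type and less RNA per cell cannot be told apart. Of 10 measured fibroblast markers, 8 were dimmer by 2-fold or more on high doxycycline relative to control, and 8 on tumor. For this and the marker counts below, the shares over all 19938 genes were 5.55% and 6.82%. In the order control, high doxycycline and tumor, their summed intensities were 18056, 5378 and 4969. Pi16, with 3891, 3891 and 3115, carried most of the later sums, and without it they were 14165, 1486 and 1854, an omission chosen after seeing the values. All 8 macrophage markers were dimmer by that margin on both arrays (summed 23405, 1238 and 979 in the same order), as were all 7 skeletal muscle markers (22525, 1267 and 1111) and 5 of 7 endothelial markers (7150, 999 and 932). The counts were 4 of 7 for smooth muscle and pericytes (5145, 1148 and 1102), 1 of 4 for adipocytes (1230.5, 417 and 442) and 2 of 2 for red cells (923, 338 and 291) on either array. Among 7 markers of clear cell sarcoma and pigment cells none differed by 2-fold between any 2 arrays (6169, 7146 and 6580). On each array only 4 of the 7 lay above the array median, and Tyr had 55.1 on every array. The dim markers can therefore say little about equal levels. S100b had intensities of 3574, 4256 and 4156, and Mitf had 1281, 1344 and 1018. The brightest markers of 4 of these types were highest on control, with Dcn (decorin) at 4867, 267 and 491 for fibroblasts, C1qb (complement) at 5449, 104 and 89.2 for macrophages, Cdh5 (the cadherin of endothelium) at 2098, 135 and 106, and Acta1 (muscle actin) at 6481, 383 and 332. No marker was at 0, since the lowest intensity on any array was 20.7. The part of these cell types in the differences below was not tested.

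Most collagen and matrix genes were brightest on control: 51 of the 59 were dimmer on high doxycycline by any margin, and 52 on tumor. Over all 19938 genes, 8880 and 10024 were dimmer by any margin, and 4008 and 3074 were exactly equal. A difference is the log2(intensity + 1) of one array minus that of another, taken from the probe set of a gene with the highest mean, and 2-fold is a difference of 1. Against control, 21 of the 59 genes were at least 2-fold dimmer on high doxycycline (35.6%) and 0 were brighter by that margin. Over all genes 5.55% were dimmer and 10.6% brighter. On tumor 20 of 59 were dimmer (33.9%) and 1 was brighter, where all genes had 6.82% and 11.3%. The median difference of the 59 genes was -0.48 on high doxycycline and -0.58 on tumor, beside 0 and -0.0039 over all genes. Both comparisons use the array labelled control, so they are not independent of each other. Between tumor and high doxycycline, without that array, 1 of 59 genes was brighter by 2-fold and 1 dimmer, where all genes had 0.903% and 1.14%, and the median was -0.086 beside 0.

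The differences were spread very unevenly over the 59 genes. On high doxycycline 12 were at least 4-fold dimmer than on control (1.73% of all genes were), and 6 at least 16-fold (Sparc, Col1a2, Lox, Col1a1, Postn and Col3a1), against 0.316%. Ordered from the dimmest of 19938 differences, Sparc stood at place 6, Col1a2 at 14, Lox at 16 and Col1a1 at 17, while Postn stood at 36. On tumor 13 were at least 4-fold dimmer and 4 at least 16-fold (Col1a2, Lox, Sparc and Col1a1), where all genes had 2.10% and 0.346%. There Sparc stood at place 17 and Postn at 103. At the other end, 38 genes lay within 2-fold of control. An indirect measure of error comes from genes with several probe sets: where a gene had several probe sets with a mean above the median, their differences ranged over a median of 0.37 between high doxycycline and control, 0.38 between tumor and control, and 0.053 between tumor and high doxycycline. For 19.4% and 19.6% of these genes the range reached 1 in the comparisons with control, and 90% of them lay below 1.38 and 1.47. Calls near 2-fold, such as those of Col15a1 and Col23a1, are therefore within what probe sets of a gene can differ by. This range is technical and holds no spread between samples. Only Col6a5, Col6a6 and Loxl4 had more than 1 probe set, and their probe sets lay on the same side of 0 or at 0. Exactly equal values on all 3 arrays were held by 3 of the 62 probe sets (4.84%, beside 15.0% of all probe sets), those of Plod2, Col4a5 and Col20a1. On tumor and high doxycycline 10 were equal (16.1%, beside 34.6%).

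**Figure D1:**
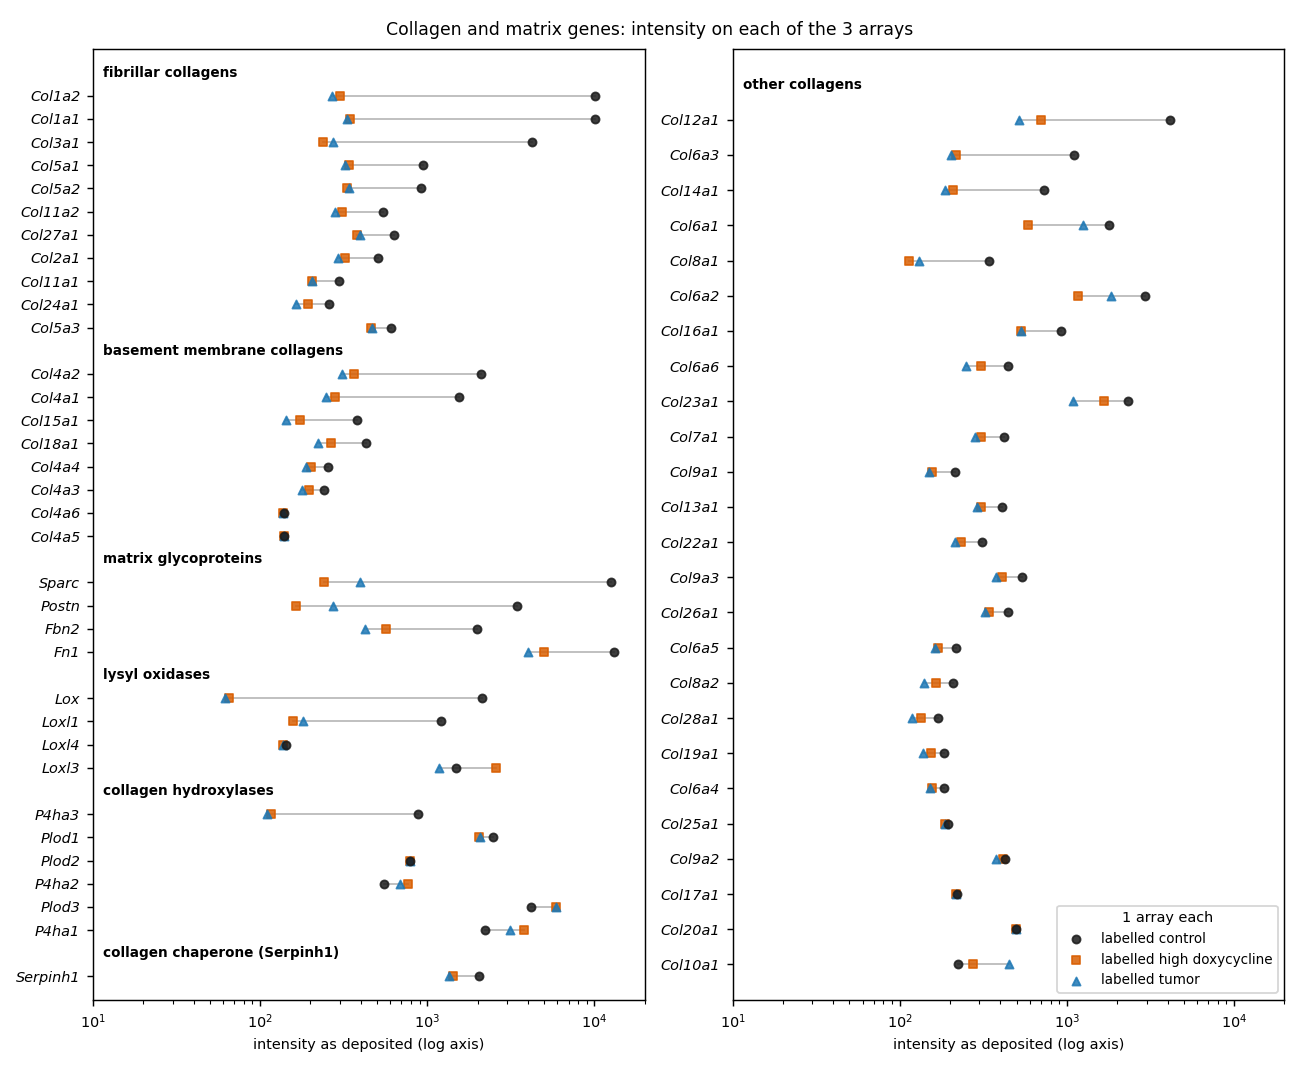
Intensity of each of the 59 collagen and matrix genes on the 3 arrays, as deposited and on a log axis, with 1 point per array and a grey line from the lowest to the highest. Sparc (12545 on control), Col1a2, Col1a1 and Lox have the longest lines, each with control at the upper end, while Loxl3, P4ha1, P4ha2, Plod3 and Col10a1 have their brightest point on high doxycycline or tumor.

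Fibrillar collagens, which give connective tissue its tensile strength, contained the steepest differences among the collagens. In the order control, high doxycycline and tumor, Col1a2, a chain of type I collagen, had intensities of 10078, 302 and 269.6, or 33.3-fold and 37.2-fold lower than control. Its partner chain Col1a1 had 10029.9, 343 and 332 (29.2-fold and 30.1-fold lower). Col3a1, the chain of type III collagen that forms thin fibrils with type I, had 4257, 237 and 274 (17.9-fold and 15.5-fold lower). In all 3 genes control stood far above the other arrays, which differed from each other by at most 0.21 on the log2 scale.

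Type V collagen sits inside type I fibrils and limits their diameter. Its chain gene Col5a1 had 945, 340.1 and 319.8 in the order control, high doxycycline and tumor, and Col5a2 had 918, 331 and 340.4. Both were 2.77-fold dimmer on high doxycycline than on control, and on tumor they were 2.95-fold and 2.69-fold dimmer. Col5a3 encodes a further type V chain, and with 609.97, 462 and 464 it lay within 2-fold on all arrays. The cartilage fibril genes Col2a1 (509, 323 and 292), Col11a1 (297, 203 and 203) and Col11a2 (547, 310.3 and 281) lay within 2-fold as well, as did Col24a1 (257, 193 and 165) and Col27a1 (628, 381 and 397). Thus 5 of 11 fibrillar genes (45.5%) were at least 2-fold dimmer on high doxycycline and the same number on tumor. Over all genes 5.55% and 6.82% were. The class medians were -0.82 and -0.96, and all 11 differences were below 0. Their sign was the same after a shift to a common median and after quantile normalization.

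The bases just before the start of 5 members are shown as examples. Col1a2, Col3a1 and Sparc lay far from control, and Col6a1 and Col6a2 were brighter on tumor than on high doxycycline. They are not the most extreme members. On high doxycycline Lox, Col1a1 and Postn lay farther from control than Col3a1, and Postn and Col10a1 rose more from high doxycycline to tumor than Col6a2. Sequences are the 250 bases before the most upstream start in RefSeq (GRCm38.p6), 5′ to 3′ on the gene's strand. They lie at chr6:4505368-4505617 on the plus strand for Col1a2, chr1:45311288-45311537 (plus) for Col3a1, chr11:55420081-55420330 (minus) for Sparc, chr10:76726045-76726294 (minus) for Col6a1 and chr10:76623631-76623880 (minus) for Col6a2. Capitals mark a match to CCAAT, to TATAAA, to the cAMP response element TGACGTCA that ATF1 and other CREB proteins bind, or to the AP-1 element of Fos and Jun (TGACTCA or TGAGTCA), on either strand.
Col1a2: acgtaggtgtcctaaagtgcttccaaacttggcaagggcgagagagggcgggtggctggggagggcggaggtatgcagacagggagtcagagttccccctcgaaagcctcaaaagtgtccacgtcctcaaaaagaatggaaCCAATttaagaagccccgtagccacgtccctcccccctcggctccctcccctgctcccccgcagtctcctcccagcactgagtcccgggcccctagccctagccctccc
Col3a1: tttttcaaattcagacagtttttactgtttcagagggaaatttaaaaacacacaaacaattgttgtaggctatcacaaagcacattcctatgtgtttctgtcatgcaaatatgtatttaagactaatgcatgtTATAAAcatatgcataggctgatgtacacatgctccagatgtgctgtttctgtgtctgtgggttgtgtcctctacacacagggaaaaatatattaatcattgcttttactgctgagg
Sparc: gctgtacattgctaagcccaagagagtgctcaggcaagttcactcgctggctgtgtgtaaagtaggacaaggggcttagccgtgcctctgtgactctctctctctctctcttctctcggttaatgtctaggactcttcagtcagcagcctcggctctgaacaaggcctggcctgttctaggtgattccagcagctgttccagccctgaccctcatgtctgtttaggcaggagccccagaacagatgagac
Col6a1: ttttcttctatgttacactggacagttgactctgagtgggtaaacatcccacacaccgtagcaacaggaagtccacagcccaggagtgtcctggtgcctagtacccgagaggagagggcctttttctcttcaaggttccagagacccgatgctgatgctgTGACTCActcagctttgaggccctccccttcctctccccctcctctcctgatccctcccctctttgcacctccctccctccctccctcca
Col6a2: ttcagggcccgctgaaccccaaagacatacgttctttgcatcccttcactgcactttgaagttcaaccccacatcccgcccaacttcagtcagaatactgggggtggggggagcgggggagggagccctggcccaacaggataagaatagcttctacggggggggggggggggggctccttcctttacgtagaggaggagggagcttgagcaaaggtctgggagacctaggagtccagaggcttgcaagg
The match in Col1a2 is a CCAAT that begins 109 bases before the start, that in Col3a1 begins 117 bases and that in Col6a1 90 bases before it. Sparc and Col6a2 had none of these letters in the window. RefSeq promoters were used for 44 of the 59 genes, so the shares do not describe all members. Promoters on 1 chromosome were left out of both the members and the background. How many of the missing genes this explains was not counted. Of the 44 genes 0 held the cAMP response element (1.60% of 27025 promoters) and 1 held the AP-1 element (2.27%, beside 4.43%). CCAAT was held by 13 (29.5%, beside 34.5%) and TATAAA by 6 (13.6%, beside 13.0%). A match to letters does not show binding.

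Type IV collagen is the network collagen of basement membranes, and its most widespread form contains the chains of Col4a1 and Col4a2. Col4a1 had intensities of 1555, 281 and 248 in the same order (5.52-fold and 6.24-fold lower than control). Col4a2 had 2101, 364 and 308 (5.76-fold and 6.81-fold lower). These neighbouring genes differed from one another by at most 0.12 on the log2 scale in any comparison. Col15a1, a collagen of the zone below basement membranes, was 2.19-fold and 2.66-fold lower, at 381, 174 and 143. Col18a1, the parent of endostatin, had 427, 264 and 221, within 2-fold of control on both arrays.

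The chain genes of the specialised type IV networks of kidney and other organs were much dimmer on control than Col4a1 and Col4a2. Col4a3 (242, 195 and 178), Col4a4 (256, 202 and 187), Col4a5 (139.6 on every array) and Col4a6 (139, 137 and 137) all lay within 2-fold. The median intensity of the control array was 250, and only Col4a4 lay above it there. Such dim values can say little about whether these genes follow Col4a1 and Col4a2. In sum, 3 of 8 basement membrane genes (37.5%) were at least 2-fold dimmer than on control on either array. All genes had 5.55% and 6.82%. The class medians were -0.52 and -0.70. Col15a1 on high doxycycline became -0.99 after a shift to a common median, within 2-fold. Over only the genes whose mean lay above the median of all probe sets, the class medians were -2.46 and -2.64. These are the values of the single gene Col4a1, and they do not describe the whole class.

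Of the 25 other collagen genes 6 were dimmer by 2-fold on high doxycycline (24%) and 5 on tumor (20%). All genes had 5.55% and 6.82%. The medians of the 25 genes were -0.41 and -0.52, and 1 was brighter on tumor (4%, beside 11.3% of all genes). Col12a1 and Col14a1 encode collagens that bind to the surface of fibrils. Col12a1 had 4111, 703 and 519 in the order control, high doxycycline and tumor (5.84-fold and 7.91-fold lower than control), and Col14a1 had 725, 209.7 and 187 (3.45-fold and 3.86-fold lower). Col8a1, a network collagen of vessels and cornea, was 3.00-fold and 2.60-fold lower (340.4, 113 and 130.2). The remaining fibril-associated genes, namely Col9a1, Col9a2, Col9a3, Col16a1, Col19a1, Col20a1 and Col22a1, lay within 2-fold in both comparisons. Col16a1 had 919, 530.2 and 530.2, and Col9a3, a cartilage chain, had 538, 409.6 and 375.

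Type VI collagen forms beaded filaments around cells, and of its 3 main chains Col6a1 and Col6a2 were alike and Col6a3 was not. Col6a3 had 1109, 218 and 201 (5.08-fold and 5.48-fold lower than control), so that high doxycycline and tumor lay together. Col6a1 had 1798, 584 and 1249: it was 3.07-fold lower on high doxycycline but 1.44-fold lower on tumor. Col6a2 had 2940.1, 1169.6 and 1839 (2.51-fold and 1.60-fold lower). In both of these neighbouring genes the array labelled tumor stood between the other arrays. Col6a4, Col6a5 and Col6a6, the later-described type VI chains, were within 2-fold everywhere, with intensities between 152 and 446. Col6a4 and Col6a5 lay below the array median on every array, so they can say little about a fall.

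The membrane-spanning collagens Col13a1, Col17a1, Col23a1 and Col25a1 were within 2-fold on high doxycycline. Of these Col23a1 was 2.12-fold lower on tumor than on control, with 2323, 1669 and 1095, a difference of -1.08 that became -0.90 after a shift to a common median and was then within 2-fold. Col10a1, the collagen of hypertrophic cartilage, was the one collagen with its lowest value on control: it had 222, 276 and 450.2, which is 2.03-fold brighter on tumor. With a pseudocount of 16 in place of 1, Col10a1 was no longer past 2-fold. Col7a1 (anchoring fibrils), Col8a2, Col26a1 and Col28a1 lay within 2-fold.

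**Figure D2:**
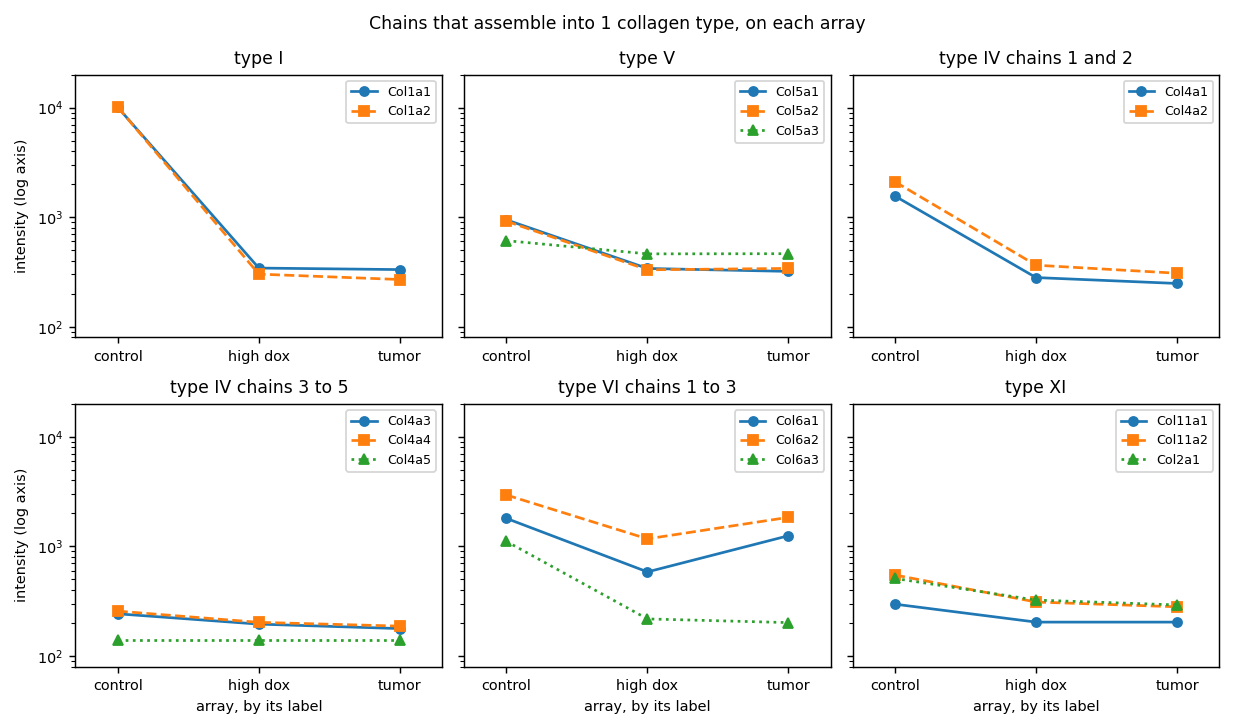
Intensity (log axis) of the chains that assemble into the same collagen type, on the control, high doxycycline and tumor arrays, 1 each. The chains of type I and the first pair of type IV run side by side, whereas Col6a1 (1249 on tumor) and Col6a2 stand above their high doxycycline values on tumor and Col6a3 (201) does not.

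Chains that assemble with each other were close in some collagens and far apart in others. Against control, the differences of the chains of type I were 0.19 apart on high doxycycline and 0.31 apart on tumor. The chains Col4a1 and Col4a2 were 0.060 and 0.12 apart, and those of type IX 0.41 and 0.35. By contrast the type V chains spanned 1.07 and 1.17, with Col5a3 nearest to control, and Col6a1, Col6a2 and Col6a3 spanned 1.02 and 1.93. The type VIII chains Col8a1 and Col8a2 spanned 1.26 and 0.81. Col9a1 and Col8a2 lay below the array median on every array, so their small differences say little. Neighbours on a chromosome were not always alike either: Col3a1 and Col5a2 lie next to each other, and on high doxycycline they had -4.16 and -1.47.

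All 4 matrix glycoprotein genes were at least 2-fold dimmer than on control on each array, where all genes had 5.55% and 6.82%. Sparc, a collagen-binding protein that helps to assemble fibrils, had 12545, 243 and 398 (51.5-fold and 31.5-fold lower). Postn, which encodes periostin and supports cross-linking, had 3436, 163 and 272 (20.9-fold and 12.6-fold lower). Fbn2, a microfibril gene of embryonic tissue, had 1984, 566 and 425 (3.50-fold and 4.66-fold lower). Fn1 encodes fibronectin, on which cells assemble fibrils. It had 13110.0, 4996 and 4009 (2.62-fold and 3.27-fold lower). The order of high doxycycline and tumor differed among them, with Sparc and Postn brighter on tumor and Fbn2 and Fn1 brighter on high doxycycline.

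The lysyl oxidases, which oxidise lysines to start cross-links, were not alike as a family. Lox, the founding member, had 2126, 65.6 and 61.7 (31.9-fold and 33.9-fold lower). Loxl1, which acts on elastin, had 1204, 157 and 181 (7.62-fold and 6.63-fold lower). Loxl4 was alike on all arrays (143, 137 and 137), but it lay below the median of each, so it can say little about a fall. Loxl3 went another way, with 1477, 2579 and 1175: it was 1.75-fold brighter on high doxycycline than on control and 1.26-fold dimmer on tumor.

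The hydroxylases held 3 of the 5 members that were brighter on high doxycycline than on control, the others being Loxl3 and Col10a1. P4ha1, the main catalytic subunit of prolyl 4-hydroxylase, had 2200.4, 3765 and 3114 (1.71-fold and 1.41-fold brighter than control). P4ha2 encodes a second catalytic subunit and had 553, 768 and 687 (1.39-fold and 1.24-fold brighter). Plod3, a lysyl hydroxylase that also adds sugars, had 4199, 5877 and 5915 (1.40-fold and 1.41-fold brighter). None of these reached 2-fold. Plod1 had 2484, 2039.8 and 2064, and Plod2, the hydroxylase of the collagen end peptides, had 792 on all arrays. P4ha3 was the exception, at 883, 116 and 110.1 (7.56-fold and 7.96-fold lower). Serpinh1 lay within 2-fold at 2049, 1424 and 1346. Hence 1 of 6 hydroxylase genes (16.7%) was dimmer by 2-fold on either array, beside 5.55% and 6.82% of all genes. A single gene is no result about the class. The median of the 6 genes was 0.24 on high doxycycline and 0.16 on tumor, the latter turning to -0.02 with quantile normalization. Meanwhile 10 of the 15 genes that are no collagens had a difference below 0 on high doxycycline and 11 on tumor. Over all 19938 genes, 8880 and 10024 did.

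Other genes of the pathway were drawn from lists by function. For comparison, 5.55% of all genes were dimmer by 2-fold on high doxycycline and 6.82% on tumor, and 10.6% and 11.3% were brighter. In the list for folding and export from the endoplasmic reticulum 3 of 15 genes were dimmer by 2-fold on high doxycycline and 2 on tumor, and 2 were brighter on each. The brighter share, 13.3%, was near that of all genes (10.6% and 11.3%). These genes were Fkbp14, a prolyl isomerase of collagen folding (1004, 3961 and 4469.7), and the oxidase gene Ero1a (758, 2013 and 2000.1). P3h1, a prolyl 3-hydroxylase (841, 382 and 363), and Sec24d, a coat protein of collagen-carrying vesicles (1480.4, 705 and 485), were dimmer on both. In the list for removal of the end peptides 0 of 7 genes were dimmer by 2-fold on high doxycycline, 2 were on tumor (Tll1 with 193, 96.5 and 83.1 and Adamts14 with 376, 191 and 181, both proteases), and 1 was brighter on both. A single gene is no result about the list. That gene, Pcolce2, an enhancer of the protease Bmp1, had 614, 2362 and 3333. Bmp1 itself had 9320.1, 6482 and 6486, and the related enhancer gene Pcolce had 12431, 10582 and 11817, within 2-fold on every array.

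Elastic fibre and microfibril genes were dimmer in 9 of 13 cases on either array (median -1.62 on both), with Fbln2 (2577, 207 and 195), Mfap5 (961, 95.2 and 83.8), Mfap2 (1381, 195 and 176) and Fbln1 (1324, 195 and 179.9) farthest from control. Of 9 matricellular genes, which regulate contact between cells and matrix, 8 were dimmer on either array (medians -1.96 and -1.79). Thbs2, a thrombospondin gene, had 2738, 136 and 114, Thbs1 had 2568, 181 and 150.3, Smoc1 had 745, 157 and 127, and Tnc, the tenascin gene, had 2797, 251 and 295. Sparcl1, a relative of Sparc, was the one brighter gene of that list, with 5855 on control, 11296 on high doxycycline (1.93-fold) and 11943 on tumor (2.04-fold). Of 9 collagen receptor genes 2 were dimmer on high doxycycline (22.2%, beside 5.55% of all genes) and 1 brighter, and 1 was dimmer on tumor (11.1%, beside 6.82%). Ddr2, a receptor kinase for fibrillar collagen, had 3910.3, 4019 and 4019, and Itgb1, the shared beta chain of collagen-binding integrins, had 2164, 3810 and 3910.3. Their alpha chain genes differed from each other, with Itga1 at 507, 201 and 139 and Itga2 at 574, 1378 and 692. Mrc2, an uptake receptor for collagen, had 1234, 524 and 817, with tumor between the other arrays.

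**Figure D3:**
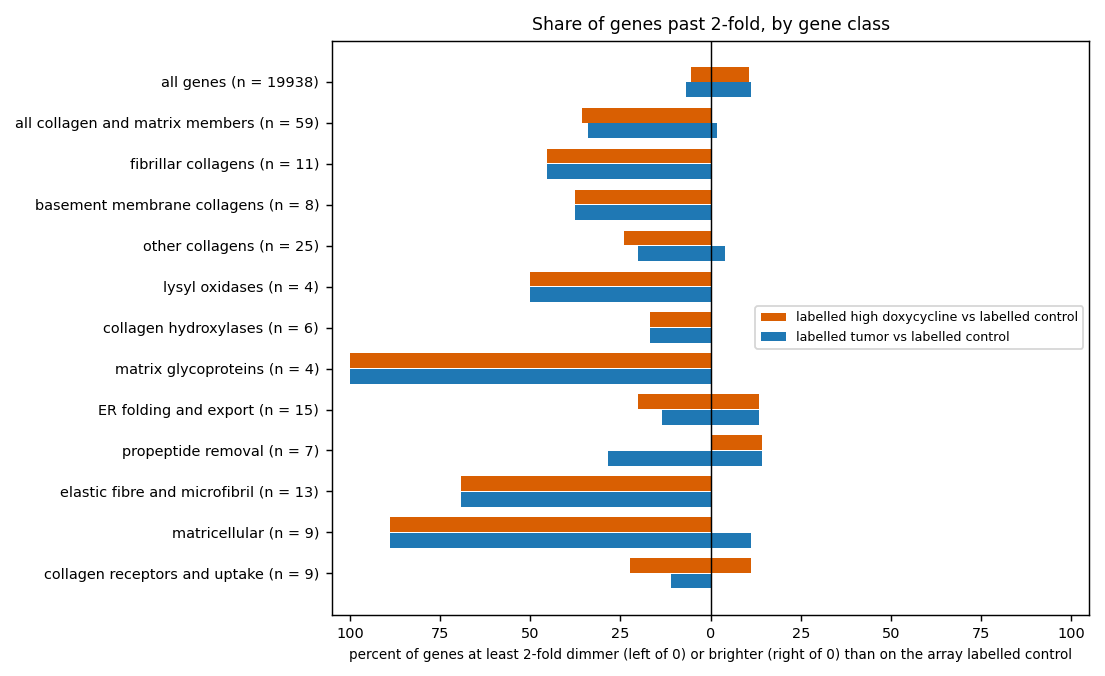
Share of genes (percent) at least 2-fold dimmer, drawn to the left of 0, or brighter, drawn to the right, than on the array labelled control, for the arrays labelled high doxycycline and tumor. Matrix glycoproteins (4 of 4) and matricellular genes (8 of 9) have the longest bars to the left and hydroxylases (1 of 6) short ones. Serpinh1, the single chaperone gene, was within 2-fold and has no bar of its own.

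When tumor was set against high doxycycline, a comparison without the control array, 57 of the 59 genes lay within 2-fold. Col6a1 was 2.14-fold brighter on tumor and Loxl3 2.19-fold dimmer. The next largest differences upward were those of Postn (0.73 on the log2 scale), Sparc (0.71), Col10a1 (0.71) and Col6a2 (0.65), and downward those of Col23a1 (-0.61), Col12a1 (-0.44) and Fbn2 (-0.41). In place from the brightest of 19938 differences, Col6a1 stood at 146, Postn at 352 and Sparc at 372. The fibrillar genes lay between -0.23 and 0.21 and the basement membrane genes between -0.28 and 0. In the fibroblast marker list Dcn, the decorin gene, was also brighter on tumor (491 against 267). Of its 10 genes 6 had a difference above 0, 4 below and 0 equal, and 0 reached 2-fold. Over all 19938 genes 4431 were above 0, 8713 below and 6794 exactly equal, so the share above 0 is lowered by equal values. Fos, the gene named in the title of the series, had 1114, 1234 and 302, and Atf1 had 1189, 1063 and 933.

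**Figure D4:**
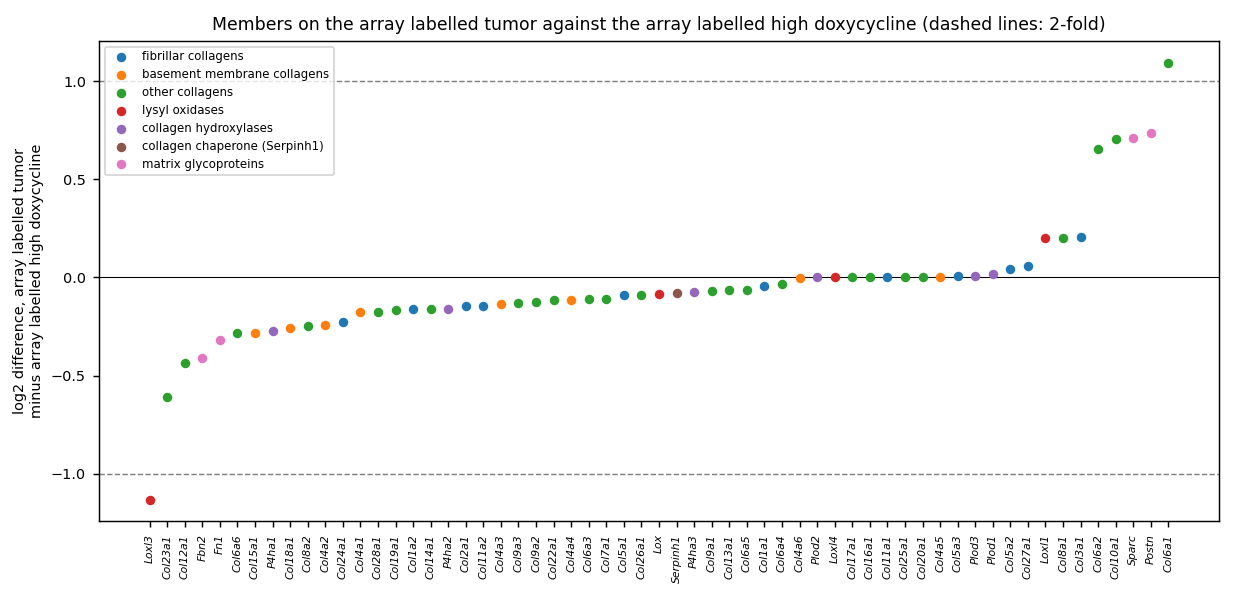
Difference of log2(intensity + 1) between the array labelled tumor and the array labelled high doxycycline for each of the 59 genes, ordered by its size and coloured by class, with dashed lines at 2-fold. Col6a1 (1.10) and Loxl3 (-1.13) lie past the lines and the other 57 genes between them.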

How the data were processed

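Per the labels, total RNA was extracted with RNeasy columns, biotin-labelled and hybridised to MoGene-1_0-st-v1 arrays, 1 per group. The authors deposited 1 table of linear intensities for 28856 probe sets. The sources used here do not give the background correction, summary or normalization. Probe sets were named through the platform annotation: 21789 had 1 symbol, 1621 several and 5446 none, and only the first kind was used (1 held Loxl2 beside another symbol). Of the 21789, 21698 matched RefSeq by Entrez number and 0 symbols changed.

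For each of 19938 genes the probe set with the highest mean log2(intensity + 1) was used, and differences between arrays were taken as deposited. No brightness filter was applied. No test was run, since each group has 1 array. The background of a count is the same count over all genes. Every member could be named, with up to 4 genes of each pathway list by their mean distance from control, and the brightest markers. Pcolce, Sparcl1 and Ddr2, and the intensities of Col8a1, were added after their values were seen. Protein sequences were not used here. The members and lists were chosen with earlier results of these data known. Alternatives were a shift to a common median, quantile normalization, filters by brightness, other probe set rules and pseudocounts of 16 and 64. The computation was tested on simulated data. Python 3.11.15, pandas 2.3.3 and numpy 2.4.6 were used.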

Additional observations from a re-analysis of the deposited data

How the results depend on the processing

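The direction of the medians over the members was the same under all 8 alternatives, and their counts of dimmer genes stayed within 1.5 times. On high doxycycline relative to control, between 17 and 21 genes were dimmer by 2-fold or more, with a median between -0.72 and -0.34. On tumor between 16 and 21 were, with a median between -0.80 and -0.40. Not all of these are out of 59 genes. The counts 17 and 16 are of 40 genes, and -0.72 and -0.80 are medians of 47. The single gene that was 2-fold brighter on tumor than on control, Col10a1, was lost with a pseudocount of 16 and with one of 64, which left 0 genes, as those pseudocounts shrink differences. Filters left fewer genes: 47 of 59 had a brighter array above its median in either comparison with control, 37 had one between tumor and high doxycycline, and 40 had a mean over the 3 arrays above the median. A shift to a common median moved all differences by 0.14 between high doxycycline and control, 0.19 between tumor and control and 0.044 between tumor and high doxycycline. It turned the sign, or moved an exact 0, of 8, 8 and 10 of the 59 genes, none of which was past 2-fold. It also took Col15a1 on high doxycycline (-0.99) and Col23a1 on tumor (-0.90) within 2-fold. Medians of single classes moved more. With the filter on the brighter array 6 of 21 moved, and 7 of 21 with the filter on the mean. Both filters kept fewer genes. The filter on the brighter array lets in genes because they are bright on 1 array. The filter on the mean can do so too: it kept Loxl1 (1204, 157 and 181), which was above the array median on control only. A steeper median under either filter is therefore partly built in, and how far was not tested. The fibrillar median on high doxycycline went from -0.82 to -1.47 with the filter on the mean, that of basement membrane genes from -0.52 to -1.13 and -2.46 with the 2 filters, and that of lysyl oxidases from -1.50 to -2.93 with the filter on the brighter array. The hydroxylase median on tumor turned from 0.16 to -0.02 with quantile normalization, and the cause was not tested. Among the dimmer genes as deposited, Col15a1 (-1.13) was just past 2-fold and Col11a2 (-0.82) just short of it on high doxycycline. On tumor these were Col23a1 (-1.08) and Col11a2 (-0.96). Among the brighter genes, Col10a1 on tumor (1.02) was barely past 2-fold. No paired analysis was possible because each group has 1 array. No background level was given, so how far dim values lie above background is not known. No array could be left out, since that would remove a group.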
